A study of Mus musculus with 9 samples.

Results

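The 10 genes described here encode the mouse IL-4 receptor pathway in B cells: the receptor chains Il4ra and Il2rg, the receptor-bound kinases Jak1 and Jak3, the transcription factor Stat6, the IL-4 target genes Fcer2a (which encodes CD23) and Il4i1, and the feedback inhibitors Socs1, Socs3 and Cish. They were chosen by gene symbol, and all 10 were found among the 48795 gene IDs counted in each RNA library and were among the 15546 genes tested. IL-4 binds the alpha chain of its receptor, which then pairs with the common gamma chain. The kinases JAK1 and JAK3 on these chains phosphorylate each other and the receptor, STAT6 docks there, is phosphorylated and enters the nucleus, where it binds DNA next to genes such as the one for CD23. SOCS proteins and CIS, made in response to cytokines, bind kinases or receptors and dampen the signal.

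The RNA libraries came from splenic follicular B cells, mature cells that recirculate through B cell follicles, of C57BL/6 mice with a floxed yy1 gene (yy1 f/f); age and sex are not given in the labels. The 3 tatcre libraries were made from cells given TAT-CRE, a Cre recombinase that enters cells and deletes yy1, and the 3 mock libraries from cells given a mock treatment. Protocol text attached to the mock libraries names TAT-CRE as well, so titles and series text set the groups. All 6 cultures received LPS, a bacterial cell wall component that activates B cells, and IL-4, the ligand of the receptor described here, for 72 hours with 10% serum by the series text and for 48 hours with 20% serum by the sample text. No culture without IL-4 has an RNA library, so induction by IL-4 itself was not measured. All cells had first been selected on surface CD23, the product of Fcer2a, before treatment. The 3 mice of the study were each split over the treatments, but no label ties a library to a mouse, so p-values rest on the spread among these 6 libraries, which may be technical in part.

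Each library held 22729187 to 28230727 gene counts, and a count of 0 allows a level of up to 0.111 to 0.128 CPM, the count scaled to the TMM-adjusted size of its library. The targeted gene Yy1 had 24, 36 and 50 counts in the tatcre libraries and 2655, 3018 and 2542 counts in the mock libraries, in keeping with the labels (log2 fold change -6.15, SE 0.17, edgeR adjusted p = 1.7e-08). The library mock 3 detected 20420 genes, the least of the 6 (up to 23197), and stood apart from the other mock libraries in a principal component analysis. All 8 B cell markers examined were detected, Pax5, Ms4a1 and Cd22 among them, and their summed level was 3544 to 3608 CPM in tatcre and 4127 to 4415 CPM in mock libraries. The summed level of 8 T cell markers was 1.48 to 2.17 CPM in tatcre and 1.49 to 2.23 CPM in mock libraries, with Cd3d, Cd3g, Cd4 and Cd8a at no more than 4 counts in any library, Lat at up to 7, Cd3e at up to 12, Trac at up to 20 and Cd28 at up to 34. Cd3e had 8, 12 and 8 counts in the tatcre libraries and 3, 4 and 0 counts in the mock libraries. For 8 myeloid markers it was 1.32 to 2.92 CPM in tatcre and 0.468 to 1.44 CPM in mock libraries, with Cd14 and S100a8 at 0 in all and Csf1r at 31, 31 and 9 counts in tatcre and 10, 8 and 1 counts in mock libraries. For 6 NK cell markers it was 0.321 to 0.752 CPM in tatcre and 0.704 to 0.809 CPM in mock libraries, with Nkg7 at 0. Prf1 had 2, 1 and 1 counts in tatcre and 7, 8 and 13 counts in mock libraries. Gzma had 6, 7 and 6 counts in tatcre and 10, 8 and 5 counts in mock libraries. Klrb1c and Klrk1 had at most 5 counts in a library and Ncr1 at most 1. For 6 mast cell and basophil markers the summed level was 1.68 to 3.67 CPM in tatcre and 0.298 to 1.93 CPM in mock libraries. Of these Fcer1a and Cpa3 were at 0, and Kit made up most of the sum in every library but mock 3. Kit had 48, 82 and 41 counts in tatcre and 50, 26 and 1 counts in mock libraries. Dendritic cell markers summed to 106 to 113 CPM in tatcre and 120 to 134 CPM in mock libraries, nearly all of it Flt3. Zbtb46 had 182, 223 and 180 counts in tatcre and 257, 191 and 185 counts in mock libraries. Siglech had up to 19 counts in a library and Xcr1 up to 3, with Clec9a and Itgax at no more than 1 count. Plasma cell markers summed to 633 to 695 CPM in tatcre and 812 to 851 CPM in mock libraries, and of these Irf4 and Jchain fell while Prdm1, Xbp1 and Sdc1 were not called.

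The comparison of tatcre with mock cells addressed how loss of YY1 changes transcripts during B cell activation. All 6 RNA libraries came from yy1 f/f cells, so loss of YY1 and exposure to TAT-CRE itself cannot be told apart. Among the 10 genes, Fcer2a and Il4i1 fell, Jak3 and Socs3 rose, and Il4ra, Il2rg, Jak1, Stat6, Socs1 and Cish did not pass the test. The threshold was a Benjamini-Hochberg adjusted p of 0.05 over all genes tested in edgeR's quasi-likelihood test. Of the 10 genes 4 were called, against 27.1% of all tested genes. Over all tested genes 16.3% fell and 10.8% rose. Among those of mean log2 CPM of 5 or more 24.3% fell and 11.7% rose. Against these shares 2 falls and 2 rises do not set the list apart. Falls were 60.2% of all calls, and 48.5% with upper-quartile factors or 42% with library size alone. For 6 of the 10 genes no tatcre value lay within the mock range, 4 of them lower and 2 higher, where 44% of all tested genes were so separated, 23.3% lower and 20.6% higher. The median log2 fold change of the 10 genes was -0.05, against 0.02 for all tested genes. In bulk RNA, fewer cells that carry a transcript and less of it per cell cannot be told apart.

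**Figure D1:**
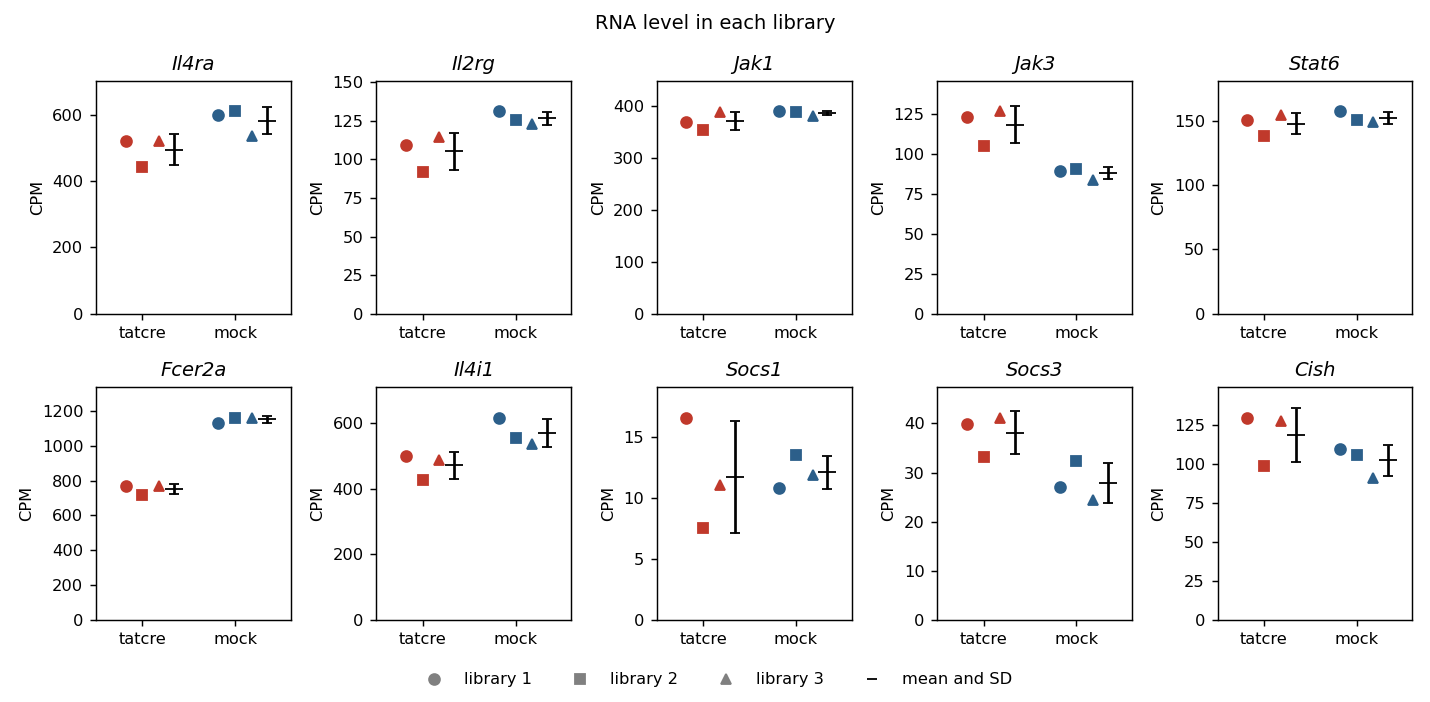
RNA level (CPM, linear axis from 0) of each of the 10 genes in each of the 3 tatcre (red) and 3 mock (blue) libraries, with the group mean and SD beside the points (n = 3 each). For Fcer2a the tatcre libraries sit between 720.2 and 771 CPM and the mock libraries between 1131 and 1163 CPM, while those of Stat6 lie among each other.

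Il4ra (ENSMUSG00000030748, chromosome 7, 125552271 to 125579474, plus strand; all positions are RefSeq intervals on GRCm38) encodes the chain that binds IL-4. It was at 521, 441 and 521 CPM in the tatcre libraries and at 599.8, 609.5 and 536 CPM in the mock libraries. All tatcre values lay below all mock values, with a gap of only a few percent between the highest tatcre and the lowest mock library. The mean was 494 ± 46.3 CPM in tatcre and 582 ± 39.9 CPM in mock cells (SD, n = 3 each), and the difference did not pass the test (log2 fold change -0.24, SE 0.09, edgeR adjusted p = 0.07). It was called lower by DESeq2 (adjusted p = 0.0393), without the low-count filter (edgeR adjusted p = 0.018) and without mock 3 (edgeR adjusted p = 0.0351).

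Il2rg (ENSMUSG00000031304, chromosome X, 101264385 to 101268255, minus strand) encodes the common gamma chain, which the receptors for IL-2, IL-7, IL-9, IL-15 and IL-21 also use. It was at 109, 92.0 and 115 CPM in the tatcre libraries and at 131, 126 and 123 CPM in the mock libraries, again without overlap. Its mean was 105 ± 11.8 CPM in tatcre and 127 ± 4.29 CPM in mock cells (SD, n = 3 each; log2 fold change -0.27, SE 0.09, edgeR adjusted p = 0.0558). DESeq2 (adjusted p = 0.03), the fit without the low-count filter (edgeR adjusted p = 0.0129) and the fit without tatcre 3 (edgeR adjusted p = 0.0336) called it lower. Within libraries the proportion of the 2 chains overlapped between groups. The ratio of Il4ra to Il2rg counts, which no library scaling can change, was 4.78, 4.79 and 4.54 in tatcre and 4.57, 4.84 and 4.37 in mock libraries (exact two-sided permutation test, p = 0.7, adjusted p = 0.7 over the 3 ratios compared).

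Of the kinases, Jak1 sits on the IL-4-binding chain and Jak3 on the common gamma chain. Jak1 (ENSMUSG00000028530, chromosome 4, 101151974 to 101265282, minus strand) was at 369.9, 354 and 388 CPM in the tatcre libraries and at 389, 388 and 381 CPM in the mock libraries. These ranges overlapped, and the test did not call it (log2 fold change -0.06, SE 0.07, 95% interval -0.21 to 0.09, edgeR adjusted p = 0.55). Jak3 (ENSMUSG00000031805, chromosome 8, 71676383 to 71690577, plus strand) was at 123, 105 and 127 CPM in the tatcre libraries and at 89.6, 90.4 and 83.8 CPM in the mock libraries. Every tatcre value exceeded every mock value. Jak3 rose 1.34-fold, to 118 ± 11.5 CPM in tatcre cells against 87.9 ± 3.59 CPM in mock cells (SD, n = 3 each; log2 fold change 0.43, SE 0.09, edgeR adjusted p = 0.0052). The rise was called in all 12 alternative settings, with log2 fold changes of 0.37 to 0.53. Insl3, whose RefSeq interval lies within that of Jak3 on the same strand, had at most 4 counts in a library.

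Stat6 (ENSMUSG00000002147, chromosome 10, 127642955 to 127660987, plus strand) encodes the transcription factor that carries the IL-4 signal to the nucleus. It was at 151, 139 and 155 CPM in the tatcre libraries and at 158, 150.5 and 149 CPM in the mock libraries. The groups interleaved, and the difference was smaller than the spread between libraries. The mean was 148 ± 8.38 CPM in tatcre and 152 ± 4.56 CPM in mock cells (SD, n = 3 each; log2 fold change -0.04, SE 0.08, edgeR adjusted p = 0.72), with a 95% interval of -0.21 to 0.13 on the log2 scale. Its direction is not settled, since the log2 fold change was 0.03 with upper-quartile factors and 0.06 with library size alone. An RNA level says nothing of the phosphorylated protein, on which STAT6 activity depends.

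**Figure D2:**
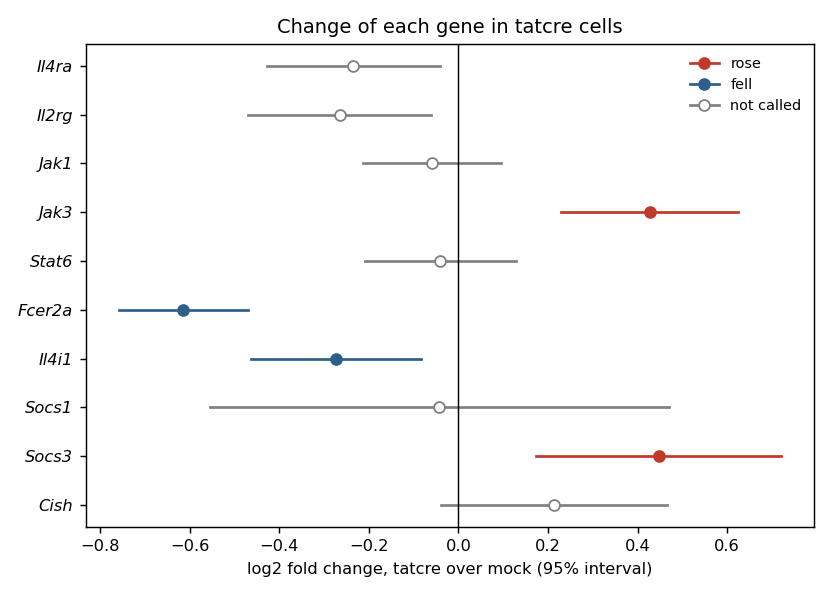
Log2 fold change of each of the 10 genes in tatcre over mock cells, with its 95% interval from the edgeR fit (3 libraries each); filled red points rose, filled blue points fell and open grey points were not called. Fcer2a lies farthest from 0, at -0.61, and Jak3 and Socs3 lie on the other side, at 0.43 and 0.45.

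Fcer2a (ENSMUSG00000005540) encodes CD23, the low-affinity receptor for IgE and a classic IL-4 and STAT6 target of mouse B cells. The gene lies on mouse chromosome 8, 3680280 to 3694174, on the minus strand (GRCm38). RefSeq gives it 3 transcription starts, and the 250 bases before the first start and before the second are printed because this gene changed most among the 10. Capitals mark a match to TTCNNNNGAA, the spacing of the inverted repeat that STAT6 prefers; the motif reads the same on both strands.
Fcer2a, first start, chr8:3694175-3694424, minus strand: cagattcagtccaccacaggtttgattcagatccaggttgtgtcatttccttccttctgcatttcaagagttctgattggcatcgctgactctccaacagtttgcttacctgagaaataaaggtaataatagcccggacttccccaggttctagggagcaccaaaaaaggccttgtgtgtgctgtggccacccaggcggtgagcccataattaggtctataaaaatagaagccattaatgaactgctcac
Fcer2a, second start, chr8:3690862-3691111, minus strand: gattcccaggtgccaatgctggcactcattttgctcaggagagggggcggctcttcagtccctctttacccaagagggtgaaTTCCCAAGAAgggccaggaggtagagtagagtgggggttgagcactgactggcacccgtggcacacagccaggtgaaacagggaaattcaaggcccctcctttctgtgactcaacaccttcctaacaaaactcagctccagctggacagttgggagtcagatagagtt
The match before the second start lies 168 to 159 bases upstream of it, inside the interval of the gene, and the windows before the first and the third start hold none. Of 32851 RefSeq windows of 250 bases, 5.85% hold this motif. Among the 12 windows of the 10 genes it was found in this one alone. AAGATGGC, a sequence that YY1 binds, was found in none of the 12 on either strand, against 1.56% of all windows. At so low a share 12 windows are too few to show a lack of it, and bases after the starts were not searched. A match is a stretch of letters, not a measured binding site, and counts per gene do not show which start was used.

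Fcer2a was at 767, 720.2 and 771 CPM in the tatcre libraries and at 1131, 1162 and 1163 CPM in the mock libraries. The groups lay far apart, and libraries within a group differed by only a few percent. It fell 1.53-fold, to 753 ± 28.2 CPM in tatcre cells against 1152 ± 18.1 CPM in mock cells (SD, n = 3 each; log2 fold change -0.61, SE 0.07, edgeR adjusted p = 8.1e-05). The fall was called in all 12 alternative settings, with log2 fold changes of -0.64 to -0.51. Set against Stat6 within each library, Fcer2a had 5.09, 5.19 and 4.98 counts per Stat6 count in tatcre and 7.18, 7.72 and 7.80 in mock libraries. The ratio was lower in each tatcre library than in each mock library (exact two-sided permutation test, p = 0.1, the smallest p that 3 against 3 allows; adjusted p = 0.3 over the 3 ratios). Several other B cell genes were lower as well. Of the 8 B cell markers 5 fell, none rose and 3 were not called. Over all tested genes 16.3% fell and 10.8% rose. Among those of mean log2 CPM of 5 or more 24.3% fell and 11.7% rose, and of the markers Cr2, at 3.21, lies below that level. Cd22 fell (564 CPM in tatcre and 770.4 CPM in mock cells, edgeR adjusted p = 0.00137). Cd79b was higher without a call (423 CPM in tatcre and 371 CPM in mock cells, edgeR adjusted p = 0.11). The part of the marker falls in the Fcer2a value was not tested. Trappc5, which shares 642 bases with Fcer2a on the other strand, was at 56.4 CPM in tatcre and 66.1 CPM in mock cells, a small number of reads beside those of Fcer2a.

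Il4i1 (ENSMUSG00000074141, chromosome 7, 44836288 to 44840809, plus strand) encodes a secreted L-amino acid oxidase that was found as a gene induced by IL-4 in B cells. It was at 499.98, 425 and 487 CPM in the tatcre libraries and at 617, 553 and 537 CPM in the mock libraries. The groups did not overlap, but the mock libraries differed among themselves by more than the gap between groups. It fell 1.21-fold, to 471 ± 40.2 CPM in tatcre cells against 569 ± 42.1 CPM in mock cells (SD, n = 3 each; log2 fold change -0.27, SE 0.09, edgeR adjusted p = 0.0368). This call ended without tatcre 2 (edgeR adjusted p = 0.0965), without tatcre 3 (0.0524), without mock 1 (0.0948) and without mock 2 (0.0697), and with upper-quartile factors (0.088) or library size alone (0.158). A longer RefSeq gene, Il4i1b, a joint transcript of the neighbouring Nup62 and Il4i1, shares 4517 bases with Il4i1 on the same strand. Nup62, a nuclear pore gene, itself fell to 241 CPM in tatcre cells, against 323 CPM in mock cells (log2 fold change -0.42, edgeR adjusted p = 0.0052), and the rule by which reads were divided between these genes is unknown here, so the Il4i1 value is uncertain.

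Socs1 (ENSMUSG00000038037, chromosome 16, 10783808 to 10785536, minus strand) encodes a direct inhibitor of JAK kinases. It was at 16.6, 7.52 and 11.1 CPM in the tatcre libraries and at 10.8, 13.5 and 11.9 CPM in the mock libraries. The tatcre libraries held both the highest and the lowest value of all, a spread of 39.0% of their mean, the widest among the 10 genes in either group. The test gave no call and a wide interval (log2 fold change -0.04, SE 0.23, 95% interval -0.55 to 0.47, edgeR adjusted p = 0.91).

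Socs3 (ENSMUSG00000053113, chromosome 11, 117966079 to 117970336, minus strand) encodes an inhibitor best known for blocking receptors of the gp130 family. It was at 40.0, 33.1 and 41.2 CPM in the tatcre libraries and at 27.0, 32.3 and 24.4 CPM in the mock libraries. Every tatcre value was above every mock value, though tatcre 2 and mock 2 nearly met. Socs3 rose 1.36-fold, to 38.1 ± 4.39 CPM in tatcre cells against 27.9 ± 4.02 CPM in mock cells (SD, n = 3 each; log2 fold change 0.45, SE 0.12, edgeR adjusted p = 0.0213). The call ended without tatcre 1 (edgeR adjusted p = 0.0798), tatcre 3 (0.064), mock 1 (0.0629) or mock 3 (0.0784), and with the replicate number as a block (0.0561). Within libraries the ratio of Socs3 to Socs1 counts was 2.41, 4.40 and 3.71 in tatcre and 2.49, 2.39 and 2.05 in mock libraries, and these overlapped (exact two-sided permutation test, p = 0.2, adjusted p = 0.3 over the 3 ratios). Socs3 was the one gene of the 10 with a match to TTCNNNGAA, the shorter spacing that STAT5 and other STAT proteins bind, which 7.02% of all windows hold. The match lies 154 to 146 bases upstream of the RefSeq start used here, inside the interval of the gene. The site is given in capitals with 10 bases on either side.
Socs3, chr11:117969502-117969530, minus strand, GRCm38: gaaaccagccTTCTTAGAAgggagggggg

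Cish (ENSMUSG00000032578, chromosome 9, 107296659 to 107302784, plus strand) encodes CIS, an SH2 protein made in response to STAT5 and bound to cytokine receptors. It was at 130, 98.8 and 127 CPM in the tatcre libraries and at 109.6, 106 and 91.2 CPM in the mock libraries. In tatcre 1 and tatcre 3 it was above all mock libraries, and in tatcre 2 it was within their range. It did not pass the test (log2 fold change 0.21, SE 0.11, 95% interval -0.04 to 0.47, edgeR adjusted p = 0.19), but without tatcre 2 it was called higher (log2 fold change 0.33, edgeR adjusted p = 0.0256).

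The library tatcre 2 had the lowest tatcre value for all 10 genes, whether they fell, rose or were not called. Over all tested genes it was the lowest tatcre library for 41.5%. Against the mock mean, tatcre 2 stood at 62.1% for Socs1, 72.7% for Il2rg and 75.8% for Il4ra, where tatcre 1 stood at 137%, 86.2% and 89.6%. Mock 3 was the lowest mock library for 8 of the 10 genes and for 37.5% of all tested genes, with Socs1 and Fcer2a lowest in mock 1. The genes least spread within both groups were Jak1, with 4.66% of the mean in tatcre and 1.09% in mock libraries, and Fcer2a, with 3.75% in tatcre and 1.57% in mock libraries.

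**Figure D3:**
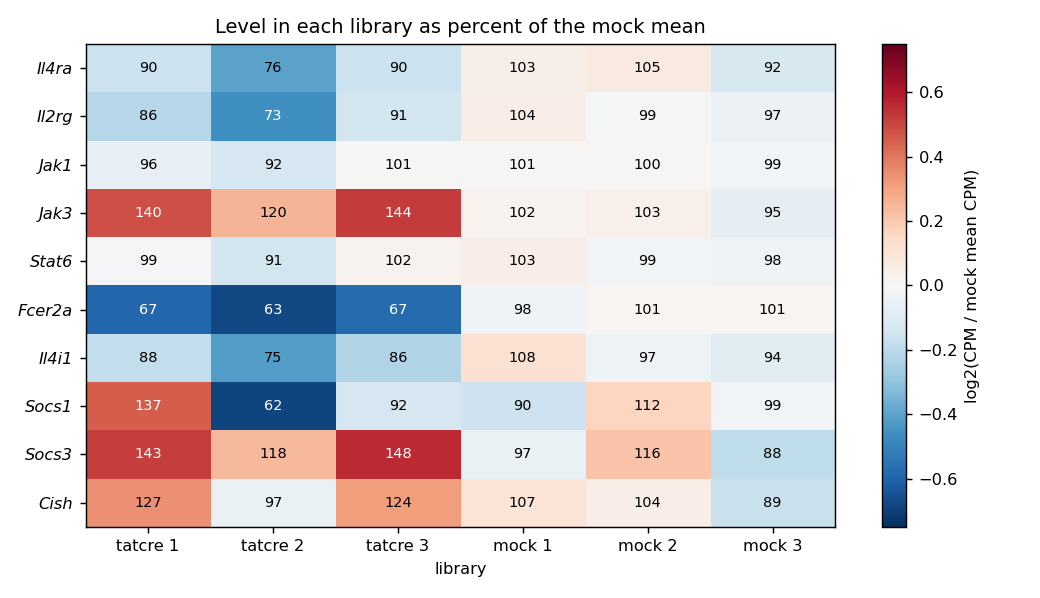
Level of each gene in each library as a percentage of its mean over the 3 mock libraries (numbers), with colour on a log2 scale, red above and blue below the mock mean. The tatcre columns come first; the tatcre 2 column holds the lowest tatcre value in every row, and the Fcer2a row is the most even within groups among the genes that changed.

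The genes with profiles nearest to 3 of the members were found by the distance between centred log2 CPM values over the 6 libraries, among 6818 other genes of mean log2 CPM of at least 4. Nearest to Fcer2a were Wdfy1, Ube2q1 and Il16, at distances of 0.071, 0.073 and 0.078, with log2 fold changes of -0.65, -0.63 and -0.61. Nearest to Stat6 were Tbca, Ap2b1 and Arhgef7, at distances of 0.047, 0.056 and 0.057. Nearest to Il4ra were Trpv2, Por and Aldh9a1, at distances of 0.045, 0.054 and 0.060. All these profiles share the same libraries and the same difference between groups, and the distances are a description.

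Several receptor chains that work beside Il4ra and Il2rg fell in tatcre cells. The lists here and below were chosen with earlier results of these data known, so their counts of calls are a description. Of 9 listed chains 7 were tested, of which 4 fell, none rose and 3 were not called, with a median log2 fold change of -0.35. Over all tested genes 16.3% fell, 10.8% rose and the median was 0.02. The IL-2 receptor beta chain gene Il2rb was at 5.12, 3.34 and 4.33 CPM in the tatcre libraries and at 18.1, 18.6 and 19.0 CPM in the mock libraries, a 4.34-fold fall (log2 fold change -2.12, SE 0.15, edgeR adjusted p = 7.0e-06). Il13ra1, which pairs with the IL-4-binding chain to form the receptor that also takes IL-13, was at 3.03, 2.76 and 2.49 CPM in the tatcre libraries and at 5.59, 8.67 and 6.77 CPM in the mock libraries (2.54-fold fall, edgeR adjusted p = 0.00087). Neither gene's groups overlapped. Il2ra fell 1.22-fold, to 187 CPM in tatcre against 228 CPM in mock cells. Il21r fell 1.28-fold, to 587 CPM in tatcre against 749 CPM in mock cells, a call lost without mock 2 (edgeR adjusted p = 0.0566). To complete the list, Il9r, Il15ra and Crlf2 were not called, and Il13ra2 and Il7r, with 4 counts or fewer per library, were not tested. With library size alone 2 of the 4 falls were called.

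Among the other JAK and STAT genes 5 of 8 fell and none rose, with a median log2 fold change of -0.34, where 16.3% of all tested genes fell and 24.3% of those of mean log2 CPM of 5 or more. Stat5a, the gene for a STAT protein activated by IL-2 family cytokines, was at 86.8, 83.3 and 91.5 CPM in the tatcre libraries and at 167, 148 and 143 CPM in the mock libraries. This was a 1.75-fold fall (log2 fold change -0.81, SE 0.09, edgeR adjusted p = 7.8e-05). Its close relative Stat5b fell 1.26-fold, a call lost without tatcre 1 or mock 1 (edgeR adjusted p of up to 0.058). Stat3 was at 209, 190.4 and 219 CPM in the tatcre libraries and at 279, 282 and 265 CPM in the mock libraries, a 1.34-fold fall (edgeR adjusted p = 0.0026). To complete both families, the kinase genes Jak2 and Tyk2 were not called, nor was Stat4 (268 CPM in tatcre and 229 CPM in mock cells, edgeR adjusted p = 0.061). The count of falls was 3 without tatcre 1, without tatcre 3 or without mock 1, and 2 with upper-quartile factors or library size alone.

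The arm of the receptor that runs through IRS proteins and PI3K did not move as a block. Of 13 genes 3 fell, 2 rose and 8 were not called, beside 16.3% of all tested genes that fell and 10.8% that rose, with a median log2 fold change of 0.00. Pdpk1, the kinase that activates AKT, fell to 48.2 ± 2.65 CPM in tatcre cells against 65.0 ± 1.94 CPM in mock cells, and Akt1 rose to 126 ± 13.2 CPM in tatcre cells against 94.4 ± 9.14 CPM in mock cells (SD, n = 3 each; edgeR adjusted p = 0.0027 and 0.0118). These 2 calls held in all 12 alternative settings. The calls of Rps6kb1, Pik3cd and Pik3ca each ended under at least 4 of the 6 single-library omissions, leaving 1 fall without tatcre 1, tatcre 2 or mock 2 and 1 rise without tatcre 1, tatcre 3, mock 2 or mock 3.

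Of 19 phosphatases and other inhibitors 5 fell, 2 rose and 12 were not called, with a median log2 fold change of -0.21; the shares over all tested genes were 16.3% and 10.8%. Ptpn6, which encodes the phosphatase SHP-1, fell to 308 ± 21.2 CPM in tatcre cells against 408 ± 17.5 CPM in mock cells, and Socs2 to 245 ± 7.82 CPM in tatcre cells against 320.0 ± 11.5 CPM in mock cells (SD, n = 3 each; edgeR adjusted p = 0.0031 and 0.0025). The adaptor gene Dok2 fell 2.82-fold at a low level, to 2.53 CPM in tatcre against 7.11 CPM in mock cells, and Pias4 fell 1.41-fold. Socs6 rose to 21.5 CPM in tatcre cells, against 15.7 CPM in mock cells, and Socs4 to 57.0 CPM in tatcre cells, against 45.8 CPM in mock cells. Both calls ended without tatcre 2, mock 1 or mock 2, that of Socs4 also without tatcre 1 (edgeR adjusted p of up to 0.0718 for Socs6 and 0.0812 for Socs4). Together with the members, the SOCS family thus held 1 fall (Socs2), 3 rises (Socs3, Socs4 and Socs6) and 4 genes not called (Socs1, Socs5, Socs7 and Cish). Each of the 3 rises lost its call without at least 3 of the 6 libraries, left out one at a time, and those of Socs3 and Socs4 also with the replicate block. Of the 11 STAT6 cofactors and modulators 3 fell and none rose, with a median log2 fold change of -0.25. The share that fell was 16.3% of all tested genes and 24.3% of those of mean log2 CPM of 5 or more. Ncoa1, a coactivator that binds STAT6, fell 2.23-fold, to 23.6 ± 2.15 CPM in tatcre cells against 52.5 ± 1.24 CPM in mock cells (SD, n = 3 each; log2 fold change -1.16, SE 0.09, edgeR adjusted p = 1.3e-05). Batf, a factor needed for class switching, fell 1.42-fold, and the call of Nfkb1 ended without tatcre 1, tatcre 2 or mock 2 (edgeR adjusted p of up to 0.0808).

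Most of the other genes listed as induced by IL-4 in B cells fell in tatcre cells. Their induction by IL-4 was not measured here. The list was chosen with earlier results of these data known, so its count of falls is a description. Of 22 listed genes 20 were tested, of which 13 fell, 1 rose and 6 were not called, with a median log2 fold change of -0.40. Over all tested genes 16.3% fell and 10.8% rose, and among those of mean log2 CPM of 5 or more 24.3% fell and 11.7% rose. Some genes of the list, such as Vdr and Il10, lie below that level. Tnfrsf13c, the receptor for the survival factor BAFF, fell 1.74-fold, to 345 ± 25.4 CPM in tatcre cells against 599.0 ± 41.9 CPM in mock cells (SD, n = 3 each; log2 fold change -0.80, SE 0.08, edgeR adjusted p = 7.1e-05). The vitamin D receptor gene Vdr fell 3.42-fold to 2.29 CPM in tatcre cells against 7.85 CPM in mock cells. The chemokine gene Ccl22 fell 1.64-fold, the hexokinase gene Hk2 1.63-fold and the MHC class II chain gene H2-Aa 1.31-fold. Il10 rose 1.77-fold, to 10.8 CPM in tatcre cells against 6.12 CPM in mock cells (edgeR adjusted p = 0.0067). Several of these genes answer to LPS as well, so the list does not isolate IL-4. With library size alone 8 of the 13 falls were called.

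The list around CD23, with proteases and other Fc receptors, held more falls than rises. Adam10, the main protease that sheds CD23 from the B cell surface, was at 249, 253 and 254 CPM in the tatcre libraries and at 165, 168 and 187 CPM in the mock libraries. It rose 1.45-fold (log2 fold change 0.54, SE 0.08, edgeR adjusted p = 0.00051), so that Adam10 and Fcer2a RNA went opposite ways in all 3 tatcre libraries against all 3 mock libraries. Adam17, a related protease named to complete the pair, was not called (122 CPM in tatcre and 126 CPM in mock cells, edgeR adjusted p = 0.62). Cr2, which encodes the complement receptor CD21, a ligand of CD23 in human, fell 3.24-fold to 4.32 ± 1.81 CPM in tatcre cells against 14.0 ± 2.08 CPM in mock cells (SD, n = 3 each; edgeR adjusted p = 0.00062). The IgM receptor gene Fcmr fell 5.03-fold, to 8.72 CPM in tatcre against 43.9 CPM in mock cells. The inhibitory IgG receptor gene Fcgr2b was at 76.4, 75.7 and 77.7 CPM in the tatcre libraries and at 108, 101 and 107 CPM in the mock libraries, a 1.38-fold fall (edgeR adjusted p = 0.0011). Over the 12 listed genes 10 were tested, of which 6 fell, 1 rose and 3 were not called, with a median log2 fold change of -0.39, beside 16.3% of all tested genes that fell and 10.8% that rose. Itgax and Fcer1g, which myeloid cells express, stayed at 9 counts or fewer per library and were not tested.

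**Figure D4:**
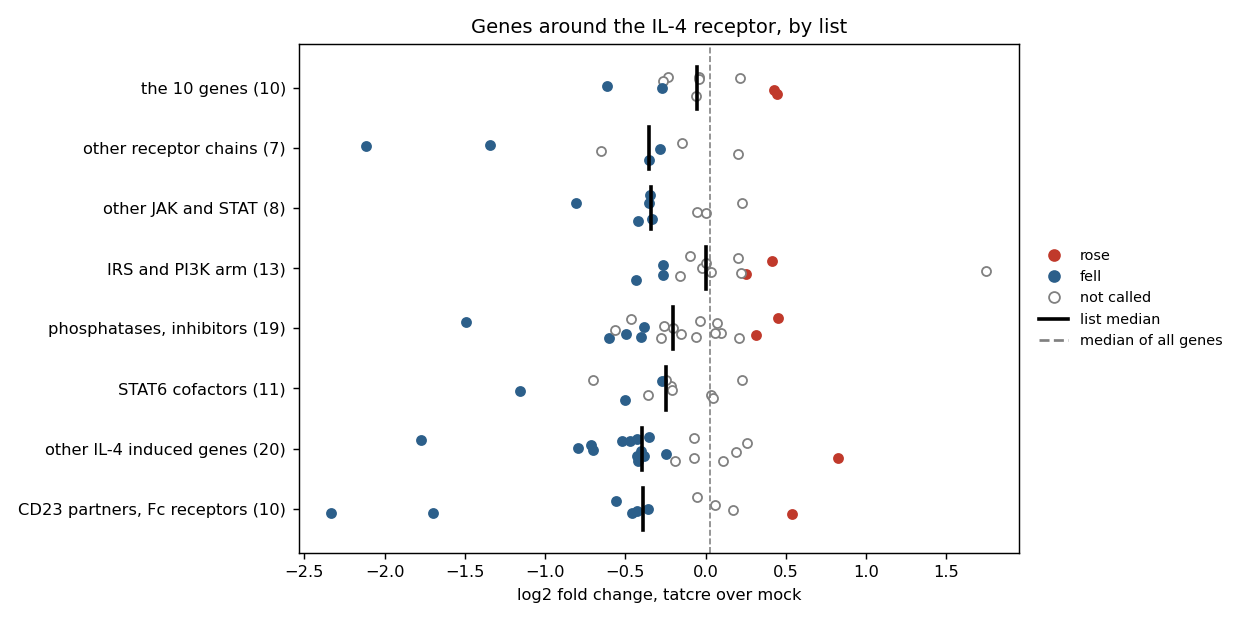
Log2 fold change in tatcre over mock cells of the tested genes of each list (number tested in brackets), with the list median as a black bar and the median of all 15546 tested genes, 0.02, as a dashed line; filled points passed the test. The medians of the other IL-4 induced genes and of the CD23 partners and Fc receptors lie at -0.40 and -0.39, and that of the 10 genes at -0.05.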

How the data were processed

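For each RNA library the authors deposited raw counts per Ensembl gene, made with Trimmomatic, TopHat2, SAMtools and HTSeq on build mm10, per the submitters' processing notes, with no versions. For the counting, neither strand setting nor annotation is given in the sources used here. Libraries came from a stranded RNA kit, per the labels' protocols. Of the 48795 gene IDs, 48349 matched a symbol; coordinates and promoter sequences are those of RefSeq on GRCm38.p6, the assembly that mm10 stands for. The 3 YY1 peak lists were not used here, because the build of their coordinates is not settled.

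Genes were kept with filterByExpr (minimum count 10, minimum total 15), scaled by TMM and tested in edgeR 4.0.16 under R 4.3.3 by its quasi-likelihood test. Genes with a Benjamini-Hochberg adjusted p below 0.05 were called. CPM use TMM-scaled library sizes. No transcript lengths were used, so levels are not compared between genes. Ratios of counts within a library were compared by an exact permutation test. The fit was tested on simulated data. No pair of replicates agreed within sampling noise (smallest chi-square per degree of freedom 8.1). Alternatives were RLE, upper-quartile and no scaling factors, no low-count filter, DESeq2 (1.42.0), a replicate block and leaving out each library.

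All 10 members were named, with up to 6 called genes per list by smallest adjusted p, other list members only for completeness, and the 3 nearest profiles of Fcer2a, Stat6 and Il4ra. Members, lists, ratios and tests were chosen with earlier results of these data known. Some members of the lists are not reported here.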

Additional observations from a re-analysis of the deposited data

How the results depend on the processing

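Over the 12 alternatives, the calls of Fcer2a (fell) and Jak3 (rose) held in all. The number of the 10 genes that fell was 1 with upper-quartile factors or library size alone, and 4 without the low-count filter or with DESeq2, which add Il4ra and Il2rg; leaving out 1 library gave 1 to 3. The number that rose was 1 with the replicate block and 1 to 3 without 1 library. Of all genes 2614 rose with library size alone, and 998 to 1681 with 1 library left out, lowest without mock 2 and without tatcre 1 (1002). With library size alone the median over all genes moves by 0.10 (log2), to 0.13, and falls were 42% of its calls, 48.5% with upper-quartile factors and 60.2% as reported. The uncalled log2 fold changes of Jak1, Stat6 and Socs1 changed sign, while those of Il4ra, Il2rg and Cish did not. That of Jak1 was 0.0082 with upper-quartile factors and 0.0446 with library size alone. That of Stat6 was 0.0261 with upper-quartile factors, 0.0624 with library size alone and -0.0817 to 0.00401 without 1 library, highest without tatcre 2. That of Socs1 was 0.0242 with upper-quartile factors, 0.0612 with library size alone and -0.39 to 0.19 without 1 library, highest without tatcre 2 and also positive without mock 2. The log2 difference in the ratio of Il4ra to Il2rg ranged from -0.0017 (without mock 3) to 0.072 without 1 library. The cause was not tested. Deviations from the group means correlated at 0.05, 0.01 and 0.23 between tatcre and mock libraries of equal replicate number. Between those of unequal number they correlated at -0.31 to 0.24. With 3 libraries per group these values cannot settle whether equal numbers mark a pair. With the replicate block 2108 genes fell and 1313 rose, and the rises of Socs3 and Socs4 were not called. For the 3 ratios the mean paired difference equals the unpaired one by construction (-0.57, 0.56 and 0.03 for Fcer2a to Stat6, Socs3 to Socs1 and Il4ra to Il2rg), and the exact sign-flip p of the first was 0.25, the smallest that 3 pairs allow. Socs1, at 180 counts in its lowest library, was the least precise of the 10 genes, with an SE of 0.23.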
